A study of Homo sapiens with 12 samples.

Results

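Arrays of cytoplasmic RNA from cells treated with an siRNA against IPPK were compared with arrays from cells treated with a control siRNA, across all probes for human transcripts. The labels mark 3 arrays of each group, so 6 of the 12 arrays of the series enter the comparison, and the other 6 carry RNA of cells treated with siRNA against DBP5 or GLE1. All cells were U2OS, a human line grown from an osteosarcoma, and every group, control included, received 20 nM siRNA with Lipofectamine2000. The 3 slides correspond to the replicate numbers, so arrays with the same number were hybridised side by side. On every slide the IPPK siRNA array lay at one position and the control array at another, so that position and siRNA cannot be told apart. The methods call the 3 array experiments independent without saying whether they began from separate cultures, so that p-values measure the spread between these samples, which may in part be technical. A knock-down lowers a transcript without removing it, and the level of the inositol phosphates themselves was not measured on the arrays.

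IPPK, inositol pentakisphosphate kinase, adds the last phosphate to inositol pentakisphosphate and so makes inositol hexakisphosphate (IP6). At the cytoplasmic face of the nuclear pore, IP6 binds GLE1 and helps it to stimulate DBP5, a DEAD-box RNA helicase encoded by DDX19A and DDX19B that releases export proteins from messenger RNA as it leaves the nucleus. IP6 is also held inside RNA editing enzymes and is bound by the Ku proteins of DNA end joining, and it is the substrate from which inositol pyrophosphates are made. The comparison addresses which cytoplasmic transcripts change when the enzyme that makes IP6 is depleted.

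The study lists a pair of siRNAs against IPPK, and the sources used here do not say which of them was used for the arrays. They are shown because such a duplex is what sets the groups apart, with the guide (antisense) strand written from its 5′ end and its seed, bases 2 to 8, in capitals.
IPPK siRNA 1 antisense: uUGCUGAUcugcuuccacuucccaguu
IPPK siRNA 1 sense: cugggaaguggaagcagaucagcaa
IPPK siRNA 2 antisense: aAUAAACCcacauuuuggcuu
IPPK siRNA 2 sense: gccaaaauguggguuuauucc
The duplexes have different seeds, and matches of the seeds in other transcripts were not searched.

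The share of detected probes was lower after IPPK knock-down. Spots well above background made up 74.8% to 77.4% of the probes on the control arrays and 70.9% to 73.8% on the IPPK siRNA arrays, ranges that do not overlap. Across genes, arrays of the same group correlated with r of 0.995 to 0.997 and arrays of different groups with r of 0.976 to 0.979. Of the 12 markers of the osteoblast lineage fixed for the cell line, 9 were measured, among them RUNX2, the master regulator of that lineage, and 3 (IBSP, PTH1R and DLX5) were not. Each gene is described by its brightest probe, and the 20818 genes kept are those whose probe passed the scanner software's test for signal well above background on the 3 arrays of any 1 siRNA. Ratios to control are given ± SD over the 3 IPPK siRNA arrays, adjusted p-values come from limma over all genes kept, and intensities are normalized fluorescence in arbitrary units, which compare arrays for 1 probe and not one gene with another.

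IPPK itself fell. Its normalized intensity was 638, 691 and 708 on the control arrays and 123, 124 and 133 on the IPPK siRNA arrays. All 3 knock-down arrays lay far below all control arrays, and the level was 0.186 ± 0.00815 of control (limma adjusted p = 1.57e-09). A second, dimmer probe for IPPK gave a smaller fall, to 0.497 of control (limma adjusted p = 2.38e-05), and the probes therefore differ in size and not in direction. IPPK was also at 0.42 of control after DBP5 knock-down and at 0.821 after GLE1 knock-down, and the level after IPPK knock-down was below both (limma adjusted p = 1.96e-07 and 1.77e-09).

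Of the genes kept, 55.4% differed from control. Fewer did with the methods' t-test after Benjamini-Hochberg, 3688 lower and 3943 higher, and with the spike-in scaling described below. At a limma adjusted p of 0.05, 5838 genes were lower (28.0% of the genes kept) and 5687 were higher (27.3%), and the median log2 fold change of all genes kept was −0.03. At least 1.5-fold lower were 2618 genes (12.6%) and at least 1.5-fold higher were 2752 genes (13.2%). With normexp background correction, which models the background and keeps dim signals above zero, 1733 genes were at least 1.5-fold lower and 1875 higher, and with the authors' values 1722 and 1838. Changes of 4-fold or more were seen in 170 lower and 177 higher genes, and of 8-fold or more in 33 lower and 21 higher genes. The changes thus ran about equally in both directions, and most were small. That balance rests on a normalization which sets the bulk of genes equal between arrays. When arrays were scaled to the spiked-in control RNA instead, the median of all genes moved to 0.10, with 3209 genes lower and 5770 higher. At least 1.5-fold lower were then 1939 genes and at least 1.5-fold higher 3592. In RNA pooled from a culture, fewer cells that express a gene and less RNA per cell cannot be told apart.

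**Figure D1:**
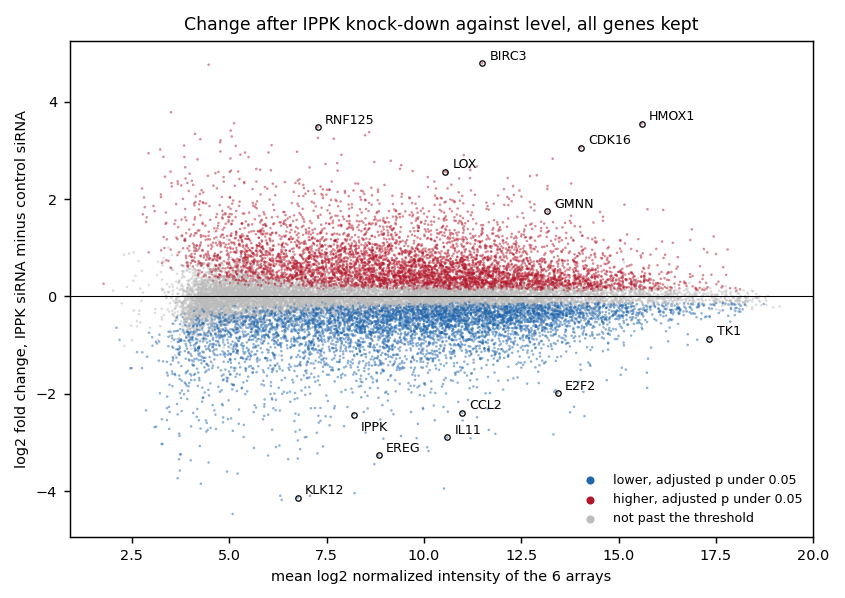
Change after IPPK knock-down (vertical axis, log2 fold change against control siRNA) against the mean log2 normalized intensity of the 6 arrays (horizontal axis), 1 point per gene kept. Blue and red points are the 5838 lower and 5687 higher genes, grey points did not pass an adjusted p of 0.05, and BIRC3 stands highest among the circled genes.

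Non-coding transcripts leaned toward lower levels. Of 704 genes annotated as long non-coding RNA, 38.6% were lower and 13.9% higher, with a median log2 fold change of −0.18, against 28.2% lower and 32.5% higher of 15289 protein-coding genes with a median of 0.01. Among RNAs known for staying in the nucleus, 3 of 5 measured were lower and 1 was higher. MALAT1, a nuclear speckle RNA, had intensities of 372, 408 and 331 in control and 241, 143 and 154 after knock-down, a ratio of 0.474 ± 0.144 (limma adjusted p = 0.0035). HOTAIR, transcribed from the HOXC cluster, was at 0.726 ± 0.0381 of control (limma adjusted p = 0.00501), and MIAT was well above background on the 3 control arrays and on none after knock-down, at least 1.34-fold lower (limma adjusted p = 0.000245). Detection moved the same way over all genes: 375 genes were well above background on all 3 control arrays and on no IPPK siRNA array, while 61 genes showed the reverse. The lower share of detected probes on the IPPK siRNA arrays moves with these counts, and its part in them was not tested.

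The largest fall among genes detected on all 6 arrays was in KLK12, a secreted serine protease of the kallikrein family, with intensities of 416, 489.5 and 460.0 in control and 23.8, 28.7 and 25.6 after IPPK knock-down, a ratio of 0.0572 ± 0.00543 (limma adjusted p = 1.57e-09). FGFBP1, which frees fibroblast growth factors from the matrix, had 569, 582 and 521 in control and 38.2, 27.8 and 32.8 after knock-down, a ratio of 0.0587 ± 0.00931 (limma adjusted p = 6.27e-09). In both, the 3 knock-down arrays lay far under the 3 control arrays. EREG, a ligand of the epidermal growth factor receptor, had 1364, 1509.5 and 1378 in control and 145, 151 and 146 after knock-down, a ratio of 0.104 ± 0.00224. ZBED2, a zinc finger transcription factor, was one of the brighter of these probes, with 3090.3, 3384 and 3064 in control and 349.8, 387 and 379 after knock-down, a ratio of 0.117 ± 0.00613. The other 6 of the 10 largest falls were MYCT1 at 0.092 of control, C11orf86 at 0.0988, MLC1 at 0.107, the alpha-2A adrenergic receptor ADRA2A at 0.114, the haemoglobin scavenger receptor CD163 at 0.117 and cardiac troponin T, TNNT2, at 0.118, each with a limma adjusted p of at most 1.94e-07. For C11orf86 a second probe gave 0.224.

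The largest rise among genes detected on all 6 arrays was in BIRC3, which encodes the ubiquitin ligase cIAP2 of TNF receptor signalling. Its intensity was 555, 566 and 532 in control and 15145, 15524 and 14924 after IPPK knock-down, a ratio of 27.6 ± 0.551 (limma adjusted p = 8.92e-11). HMOX1, the haem-degrading enzyme haem oxygenase 1, went from 15543, 15052 and 12982 to 169618, 166427 and 169608, a ratio of 11.6 ± 0.127 (limma adjusted p = 7.13e-10). The 3 knock-down arrays differed among themselves by far less than either change. RNF125, a ubiquitin ligase that acts on cytoplasmic RNA sensors, had 48, 49.9 and 41.6 in control and 467, 554 and 529 after knock-down, a ratio of 11.1 ± 0.965. NXT2, a partner of the bulk messenger RNA export receptor NXF1, had 115, 133 and 114 in control and 1366, 1156 and 1218 after knock-down, a ratio of 10.3 ± 0.896, and a second probe for it gave 2.79. TRAF1, an adaptor that binds cIAP proteins, had 71.5, 61.6 and 68.7 in control and 511, 720.4 and 689.7 after knock-down, a ratio of 9.43 ± 1.69. Of these, TRAF1 varied most between the knock-down arrays, and its lowest knock-down array was still several times any control array. The other 5 of the 10 largest rises were GPD1L, a glycerol-3-phosphate dehydrogenase, at 9.91 times control, the synaptic organiser CBLN2 at 9.53, the metallophosphoesterase MPPED2 at 8.61, the cyclin-dependent kinase CDK16 at 8.32 and OXNAD1 at 7.84, each with a limma adjusted p of at most 7.15e-09.

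**Figure D2:**
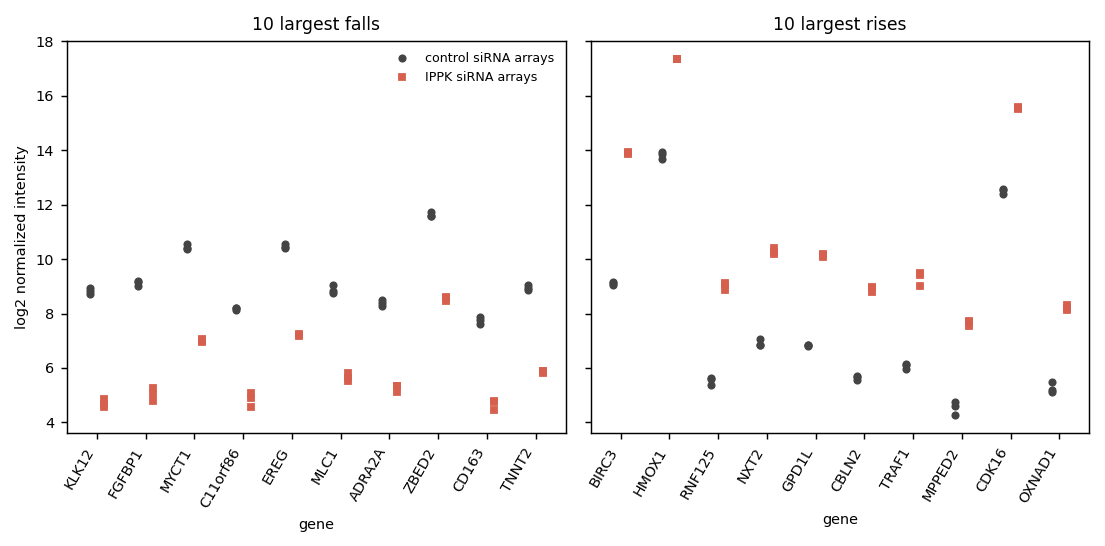
Log2 normalized intensity (vertical axis) of the 10 genes that fell most (left) and the 10 that rose most (right), with 1 point for each of the 3 control siRNA arrays (circles) and 3 IPPK siRNA arrays (squares). In every gene the groups stand apart by several times their own spread, from a ratio of 0.0572 for KLK12 to one of 27.6 for BIRC3.

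Other genes were detected in one group alone, which gives a bound on the change. ANGPT2, an antagonist ligand of the endothelial receptor TIE2, was well above background on the 3 control arrays (144, 171 and 166) and on no IPPK siRNA array (6.16, 7.88 and 7.84), at least 9.93-fold lower. DKK1, a secreted Wnt inhibitor, was at least 5.73-fold lower, from 103, 103 and 104, and PRB2, KIF25 and C1QL2 were at least 8.13, 5.83 and 4.99-fold lower. In the other direction, PIP5K1B, one of the kinases that make phosphatidylinositol bisphosphate, rose at least 8.89-fold, to 96.2, 124 and 143, from a level not well above background on any control array. The lysosomal protease CTSO rose at least 8.66-fold, DORIP1 at least 6.26-fold and the zinc finger gene ZNF678 at least 6.12-fold. For the genes named here the limma adjusted p was at most 3.77e-05. The bounds set the bright group against the dimmest signal that counted as well above background on each array, or the probe's own signal where that was higher.

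Enzymes of inositol phosphate metabolism, counted with IPPK itself, rose more often than they fell. Of 35 measured members, 16 were higher, 5 were lower and 14 did not pass the test, with a median log2 fold change of 0.18. The lower count was 2 with spike-in scaling, and 3 without control array 2 or without IPPK siRNA array 1. The shares were 45.7% higher and 14.3% lower, against 27.3% and 28.0% of all genes kept. Of protein-coding genes alone, 32.5% were higher and 28.2% lower. The median was 0.087 with normexp background correction, 0.083 with the authors' values and 0.34 with spike-in scaling. Of the 10 other inositol phosphate kinases, 4 were higher and 2 lower. PPIP5K2, which makes inositol pyrophosphates from products of IP6, rose most: 204, 255 and 224 in control, 881, 910.0 and 890.5 after knock-down, a ratio of 3.94 ± 0.0654 (limma adjusted p = 1.61e-08). Its paralog PPIP5K1 was at 1.54 ± 0.0438, though its other probes did not pass the test. The groups did not overlap for either gene. ITPK1, which phosphorylates trisphosphates and tetrakisphosphates on the way to IP6, was at 1.39 ± 0.0566 of control (limma adjusted p = 0.00195), and the inositol trisphosphate kinase ITPKA was at 1.25 ± 0.00626 (limma adjusted p = 7.79e-05). IPMK, which makes the pentakisphosphate that IPPK uses, was at 1.05 ± 0.301 of control, with a spread between arrays larger than the difference (limma adjusted p = 0.812). ITPKC fell to 0.785 ± 0.0064 of control, a call that was lost with spike-in scaling. IP6K1, an IP6 kinase, was at 0.82 ± 0.032 (limma adjusted p = 0.0177), a call that was lost without IPPK siRNA array 1 or without control array 2 (limma adjusted p = 0.0539 and 0.0616), while IP6K2 was at 1.06 ± 0.0114 by its brightest probe (limma adjusted p = 0.147) and at 0.735 by a second one (limma adjusted p = 0.000188).

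The phosphatases of the same pathway carried most of the rises. Among 13 inositol 5-phosphatases and 4-phosphatases, 10 were higher and 1 was lower, against 27.3% and 28.0% of all genes kept. INPP5A, which removes a phosphate from inositol trisphosphate and so ends its calcium signal, had 581, 647 and 608 in control and 2509, 2700.3 and 2491 after knock-down, a ratio of 4.2 ± 0.189 (limma adjusted p = 7.91e-09), and a second probe gave 2.03. INPP5D, the lipid 5-phosphatase SHIP1, had 334, 384 and 333 in control and 777, 787 and 796 after knock-down, a ratio of 2.25 ± 0.0274. Both stood clear of the control arrays on every array. The diphosphoinositol phosphatase NUDT4 was at 0.745 ± 0.0226 of control, but its second probe gave 1.09 (limma adjusted p = 0.369). MINPP1, which takes phosphates off IP6, was at 0.88 ± 0.0596 by its brightest probe (limma adjusted p = 0.251) and at 0.701 by a second one (limma adjusted p = 0.00166).

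Phospholipase C enzymes, which release inositol trisphosphate from the membrane, and the receptors that open calcium stores for it split by member. Of 15 measured, 7 were higher and 4 lower (46.7% and 26.7%), against 27.3% and 28.0% of all genes kept. PLCD4 fell from 471, 477 and 449 to 116, 119 and 124, a ratio of 0.257 ± 0.00848 (limma adjusted p = 6.6e-09), and PLCB2 was at 0.475 ± 0.00277 of control. PLCG2 rose to 2.48 ± 0.124 and PLCB3 to 1.98 ± 0.327. The receptor ITPR2 rose from 62.9, 55.1 and 54.7 to 159.6, 152 and 167, a ratio of 2.78 ± 0.133 (limma adjusted p = 9.27e-06), with a second probe at 1.6, while ITPR3 was at 1.22 ± 0.0245. Falls and rises within the enzyme family were both larger than the spread between arrays.

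Messenger RNA export factors held falls and rises. Of 43 measured, 15 were lower (34.9%) and 10 higher (23.3%), with a median log2 fold change of −0.01. Those shares are near the 28.0% and 27.3% of all genes kept, and with spike-in scaling 7 were lower and 11 higher. The partners of IP6 were among those that changed. DDX19A, one of the genes for DBP5, went from 7133, 7205 and 6782 to 2118, 2152 and 2095, a ratio of 0.301 ± 0.00413 (limma adjusted p = 2.09e-09), while its near-identical neighbour DDX19B was at 0.874 ± 0.0277 (limma adjusted p = 0.00776), a call that was lost with normexp background correction or spike-in scaling. Probes for such close paralogs may bind both transcripts, so the split between them is uncertain. GLE1 was at 0.717 ± 0.0464 of control (limma adjusted p = 0.0199), and without IPPK siRNA array 1 or without control array 2 it did not pass (limma adjusted p = 0.0646 and 0.0539). PCID2, of the TREX-2 export complex, fell from 27674, 32269 and 28887 to 8947, 8698 and 8691, a ratio of 0.297 ± 0.00493 (limma adjusted p = 3.9e-08). The receptor NXF1 was at 0.714 ± 0.0318 and the exportin XPO1 at 0.686 ± 0.0044. Besides NXT2, THOC1 of the THO complex rose to 1.91 ± 0.184, as did the nucleoporin NUP214, which docks DBP5 at the pore, to 1.44 ± 0.0216. LUZP4 was well above background on 2 IPPK siRNA arrays and on no control array (limma adjusted p = 1.03e-06).

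Factors that handle messenger RNA in the cytoplasm changed in both directions. Of 17 genes for translation termination and ribosome recycling, 9 were higher and 3 lower (7 and 0 with spike-in scaling), with a median log2 fold change of 0.20. That is 52.9% and 17.65%, against 27.3% and 28.0% of all genes kept and 32.5% and 28.2% of protein-coding genes. EIF5A, needed for elongation and termination, rose from 2349, 2269.8 and 2610.0 to 8413, 9033 and 9041, a ratio of 3.67 ± 0.15 (limma adjusted p = 2.38e-08). The ribosome rescue factor HBS1L was at 2.19 ± 0.0485 of control, and the recycling factors EIF3J and ABCE1 were at 2.04 ± 0.0385 and 1.94 ± 0.0238. The termination factor ETF1 was at 1.21 ± 0.107 and did not pass (limma adjusted p = 0.308). Of 37 granule and decay factors, 15 were lower (40.5%) and 11 higher (29.7%), and with spike-in scaling 4 were lower and 11 higher. The decapping factor DCP1A fell from 14140.3, 15928 and 13981 to 4093, 4309 and 4436, a ratio of 0.292 ± 0.0118. The stress granule protein G3BP2 rose from 5108, 5169.9 and 5307 to 14662, 14715 and 14577, a ratio of 2.82 ± 0.0134 (limma adjusted p = 1.57e-09), and its partner CAPRIN1 to 1.75 ± 0.0664, with a second probe at 4.22. Of 29 members of the nuclear exosome and 3′ processing machinery, 8 were lower and 9 higher (3 and 12 with spike-in scaling). These are 27.6% and 31.0%, near the shares of all genes kept. ZCCHC8 and RBM7, both of the exosome targeting complex, fell to 0.645 and 0.646 of control, and the exosome subunit EXOSC8 rose to 1.9.

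RNA editing enzymes and end joining factors are of interest because members of both bind IP6. Among 10 editing enzymes, 4 were lower and 4 higher, and 2 and 4 with spike-in scaling. The tRNA deaminase ADAT1 fell from 1029, 967 and 1005 to 325, 332 and 323, a ratio of 0.326 ± 0.0046 (limma adjusted p = 3.69e-08), and APOBEC3C rose to 1.51 ± 0.0118. For ADARB1, the RNA editor with IP6 in its core, the brighter probe gave 1.22 ± 0.0228 and the dimmer one 0.847 of control, both past the test in opposite directions (limma adjusted p = 0.0103 and 0.00449). No single direction can be given for that gene. Of 10 end joining factors 6 were lower and 1 higher, with XRCC4 at 0.651 ± 0.0635 and PAXX at 0.654 ± 0.0675 of control. With spike-in scaling 2 were lower and 2 higher, and with the methods' t-test after Benjamini-Hochberg 3 and 0. All genes kept had 28.0% lower and 27.3% higher.

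Transcripts of DNA replication and the cell cycle fell on balance. Of 40 genes for replication licensing and firing, 24 were lower and 4 higher with a median log2 fold change of −0.38, and of 34 mitotic genes 24 were lower and 4 higher with a median of −0.42. All genes kept had 28.0% lower and 27.3% higher. With spike-in scaling the counts were 17 lower and 5 higher for replication, with a median of −0.23, and 14 lower and 4 higher for mitosis. All 6 subunits of the MCM2 to MCM7 helicase were lower, from 0.509 to 0.752 of control. MCM5 went from 15019.7, 14635 and 15472 to 7381, 7726 and 7853, a ratio of 0.509 ± 0.0162 (limma adjusted p = 8.45e-06), CDC45, which completes the active helicase, to 0.55 ± 0.002, and TOPBP1, an initiator of firing, to 0.476 ± 0.015. Against that trend GMNN, geminin, the inhibitor that stops origins from being licensed again, rose from 4943, 5297 and 4901 to 17409.9, 16788 and 16605, a ratio of 3.36 ± 0.0836 (limma adjusted p = 5.39e-09). CDC6, which loads the helicase, rose from 79.4, 88.3 and 92.9 to 192, 214 and 201, a ratio of 2.33 ± 0.126, while the other loader CDT1 was at 0.734 ± 0.0235. For the primase subunit PRIM2 the brightest probe gave 1.92 ± 0.00986, a second one 1.95 and the dimmest 0.619 of control, each past the test, so that its direction is open to the choice of probe.

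Among regulators of entry into S phase, 18 of 32 were lower (56.25%) and 7 higher (21.9%), with a median log2 fold change of −0.28. All genes kept had 28.0% lower and 27.3% higher. With spike-in scaling 11 were lower and 9 higher, with a median of −0.12. The activating factor E2F1 went from 9006, 9847 and 9798 to 4243, 4521 and 4527, a ratio of 0.464 ± 0.017 (limma adjusted p = 9.62e-07). E2F8 was at 0.373 ± 0.00881, cyclin E1, CCNE1, at 0.573 ± 0.0522 and the inhibitor CDKN2D, which binds CDK4 and CDK6, at 0.365 ± 0.00449 of control. Members that restrain the cycle went both ways. BTG2, an antiproliferative gene, rose from 2537, 2364 and 2519 to 6509.5, 7493 and 7335, a ratio of 2.87 ± 0.214 (limma adjusted p = 1.14e-06), the repressor E2F7 to 1.98 ± 0.278 and the kinase inhibitor CDKN1A to 1.61 ± 0.02. The kinase inhibitors CDKN1B and CDKN2C fell to 0.829 ± 0.0335 and 0.537 ± 0.085, the retinoblastoma gene RB1 to 0.64 ± 0.0266, the repressor E2F6 to 0.779 ± 0.039 and BTG1, a relative of BTG2, to 0.861 ± 0.00551. With spike-in scaling CDKN1B, E2F6 and BTG1 did not pass. Cyclin D2, CCND2, rose to 2.21 ± 0.149. The mitotic falls were led by cyclin B2, CCNB2, at 0.58 ± 0.0135, the kinesin KIF20A at 0.601 ± 0.035 and the anaphase inhibitor FBXO5 at 0.618 ± 0.0312 of control. PLK1, the polo-like kinase of mitotic entry, was at 0.623 ± 0.0104, while PLK4, which duplicates centrioles, and KIZ, which holds spindle poles together, were higher, at 1.55 ± 0.0338 and 1.41 ± 0.0624. BIRC5, survivin, was also higher, at 1.27 ± 0.0349. For cyclin B1, CCNB1, the brighter probe gave 0.761 ± 0.00347 and a second probe 1.24.

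Enzymes that supply nucleotides in S phase held more falls than rises, though not with spike-in scaling. Of 21 genes 11 were lower (52.4%) and 6 higher (28.6%), and with spike-in scaling 6 were lower and 6 higher. All genes kept had 28.0% lower and 27.3% higher. RRM2, the small subunit of ribonucleotide reductase, went from 7192, 6853 and 7153 to 3620.0, 3659 and 3604, a ratio of 0.513 ± 0.00397 (limma adjusted p = 1.38e-06), and thymidine kinase TK1 from 219177, 226069 and 225264 to 122559, 119626 and 123455, a ratio of 0.545 ± 0.00896. DUT was at 0.528 ± 0.0954. The salvage enzyme DCK rose from 188, 199.7 and 184 to 559.5, 554 and 548, a ratio of 2.91 ± 0.0316 (limma adjusted p = 1.78e-07), the purine enzyme PAICS to 2.72 ± 0.0917 and RRM2B, the reductase subunit used outside S phase, to 1.49 ± 0.082. Among 33 genes of double-strand break, cross-link and mismatch repair 17 were lower (51.5%) and 6 higher (18.2%), and 6 and 6 with spike-in scaling. FANCE was at 0.509 ± 0.0119 and RPA2 at 0.599 ± 0.0198 of control, and RAD52 was higher, at 1.65 ± 0.0275. Checkpoint genes were split, 8 lower and 7 higher of 20, and 4 and 7 with spike-in scaling. CLSPN, claspin, was at 0.491 ± 0.0162, while the kinase ATR rose from 919, 934 and 921 to 2214, 2219 and 2190.2, a ratio of 2.39 ± 0.0165 (limma adjusted p = 7.11e-09), and RAD50 to 1.69 ± 0.0719.

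Promoters of replication genes were read for known binding words of E2F factors, which drive genes of S phase. The words TTTCCCGC, TTTCGCGC, TTTGGCGC and TTTGCCGC were searched on both strands in RefSeq promoters (assembly GRCh38.p14, 250 bases before to 50 after each start), and overlapping matches run together in the capitals. Of 35116 promoters, 3.31% held at least 1. Among replication genes the words were in 11 of 21 promoters of lower genes (52.4%) and in 3 of 4 of higher genes, GMNN and CDC6 among them. They were in 19 of 36 promoters of all measured replication genes (52.8%), a share like that of the lower ones. Among the regulators of S phase entry they were in 5 of 14 promoters of lower genes, 0 of 5 of higher ones and 7 of 25 of all measured. Among mitotic genes they were in 2 of 19 of lower ones and 2 of 28 of all measured. A match is a description of the sequence and no evidence of binding. The stretches of E2F2 (chr1:23531234-23531353, minus strand) and MCM6 (chr2:135876492-135876625, minus strand) are shown upstream of the start, with the words in capitals, since both transcripts fell, E2F2 to 0.253 and MCM6 to 0.572 of control.
E2F2: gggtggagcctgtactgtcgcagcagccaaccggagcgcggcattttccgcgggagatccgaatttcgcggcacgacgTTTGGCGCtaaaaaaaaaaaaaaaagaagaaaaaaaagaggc
MCM6: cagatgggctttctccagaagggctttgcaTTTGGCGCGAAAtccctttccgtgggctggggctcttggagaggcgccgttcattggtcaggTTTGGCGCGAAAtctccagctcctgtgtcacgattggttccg

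Targets of p53, a transcription factor that answers DNA damage and other stress, had the largest share of higher genes among the whole lists examined. Smaller groups within a list are left aside in that ranking. Of 31 measured, 23 were higher and 4 lower, with a median log2 fold change of 0.62, and with spike-in scaling 23 were higher and 3 lower. Of all genes kept 27.3% were higher and 28.0% lower, and of protein-coding genes 32.5% and 28.2%. TIGAR, a regulator of glycolysis, had 374, 454 and 353 in control and 1544, 1602 and 1660.1 after knock-down, a ratio of 4.09 ± 0.149 (limma adjusted p = 5.88e-08). The death receptor FAS had 668, 777 and 674 in control and 1845, 2069 and 1952 after knock-down, a ratio of 2.77 ± 0.159 (limma adjusted p = 6.28e-07). The next in size after TIGAR, BTG2 and FAS were ZMAT3 at 2.58 and the kinase PLK2 at 2.54 times control. MDM2, the ligase that degrades p53, was at 1.34 ± 0.122 by its brightest probe, which did not pass with normexp background correction (limma adjusted p = 0.107), and at 1.76 and 1.83 by its other probes (limma adjusted p = 0.000216 and 1.29e-05). The proapoptotic BBC3 was at 2.03 ± 0.253. Known targets also went down, GDF15, a stress cytokine, at 0.597 ± 0.0387 and PPM1D, a phosphatase that ends the damage signal, at 0.601 ± 0.0233 of control (limma adjusted p = 2.47e-06 and 8.7e-06).

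The BCL2 family of apoptosis regulators held falls and rises among its antiapoptotic and among its proapoptotic members. Of 13 measured, 6 were lower and 2 higher, against 28.0% and 27.3% of all genes kept, and 3 and 3 with spike-in scaling. BBC3, also proapoptotic and given above with the p53 targets, is not among the rises counted here. The antiapoptotic BCL2L2 fell from 4093, 4240.4 and 4411 to 1325, 1264 and 1275, a ratio of 0.303 ± 0.0077 (limma adjusted p = 2.22e-09), while BCL2A1, also antiapoptotic and a known NF-kappaB target, rose from 1093, 1146 and 1080.0 to 3473, 3519.8 and 3441, a ratio of 3.14 ± 0.0356 (limma adjusted p = 6.32e-09). Of the proapoptotic members BMF was at 0.553 ± 0.101 and HRK at 1.45 ± 0.0366. BCL2L11 gave 0.444 ± 0.0102 by its brightest probe, and dimmer probes gave 1.47 and 0.725.

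Cytokine transcripts fell more often than they rose, several of them steeply. Of 27 cytokines, chemokines and colony-stimulating factors measured, 14 were lower and 3 higher with a median log2 fold change of −0.42, and 6 more were not kept. The shares were 51.9% lower and 11.1% higher, against 28.0% and 27.3% of all genes kept. The median was −0.17 with normexp background correction, −0.20 with the authors' values and −0.29 over the 23 cytokines detected on each of the 6 arrays. The counts were 12 lower and 3 higher with spike-in scaling. IL11, a cytokine of the IL-6 family, had 4283, 4649 and 3776 in control and 592, 551 and 562 after knock-down, a ratio of 0.135 ± 0.00503 (limma adjusted p = 3.01e-09). The monocyte chemokine CCL2 had 4543, 4685 and 4701 in control and 874, 887 and 899 after knock-down, a ratio of 0.191 ± 0.0026 (limma adjusted p = 2.57e-09). The 3 knock-down arrays of either gene lay close together and far below control. IL1A was at 0.171 ± 0.0158 of control, CSF2 at 0.237 ± 0.0109, IL6 at 0.315 ± 0.00585 and the neutrophil chemokine CXCL8 at 0.345 ± 0.0157, each with all 3 knock-down arrays below all control arrays. IL1B was well above background on the 3 control arrays (68.6, 79.5 and 71.8) and on none after knock-down (4.81, 5.08 and 5.43), at least 4.54-fold lower (limma adjusted p = 3.94e-09), and TNF, at 0.174 ± 0.0238, was well above background on 2 of 3 knock-down arrays. The chemokine CCL3 went the other way, from 2257, 2449.6 and 2286 to 9673, 9301 and 9106, a ratio of 4.02 ± 0.124 (limma adjusted p = 1.58e-09), and IL18 and IL32 were at 1.51 ± 0.011 and 1.35 ± 0.0185.

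Signalling genes upstream of these cytokines changed in both directions. Among 34 genes of NF-kappaB, TNF receptor and TRAF signalling, 15 were higher and 9 lower (16 and 5 with spike-in scaling) with a median log2 fold change of 0.13, or 0.25 with spike-in scaling. The shares were 44.1% higher and 26.5% lower, against 27.3% and 28.0% of all genes kept and 32.5% and 28.2% of protein-coding genes. NF-kappaB factors are held in the cytoplasm by inhibitor proteins, and TRAF adaptors with cIAP ligases link receptors to their release. Besides BIRC3 and TRAF1, the paralog ligase BIRC2 was at 1.68 ± 0.0284, the kinase MAP3K14 (NIK) of the non-canonical branch rose from 1547, 1468 and 1480.3 to 3749, 3659 and 3567, a ratio of 2.44 ± 0.0607 (limma adjusted p = 1.54e-08), and RIPK1 rose to 2.03 ± 0.00314. TRAF3, the adaptor that with TRAF2 and the cIAP ligases marks MAP3K14 for degradation, fell from 621, 607 and 670.0 to 158, 186 and 189, a ratio of 0.28 ± 0.027 (limma adjusted p = 1.72e-08). Members of one ubiquitin ligase complex thus changed in opposite directions. The receptor CD40 was at 0.541 ± 0.0179 of control and the inhibitor NFKBIE at 0.604 ± 0.0263. Of the feedback inhibitors that NF-kappaB itself induces, TNFAIP3 was at 0.821 ± 0.0309 (limma adjusted p = 0.00944), a call that was lost with spike-in scaling and with the methods' t-test after Benjamini-Hochberg, and NFKBIA was at 1.08 ± 0.0368 and did not pass (limma adjusted p = 0.104). The subunit NFKB1 was at 1.37 ± 0.0101, while the subunits RELA and REL were lower and NFKB2 did not pass. NFKBIB gave 0.574 ± 0.0161 by its brightest probe and 1.05 by another.

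**Figure D3:**
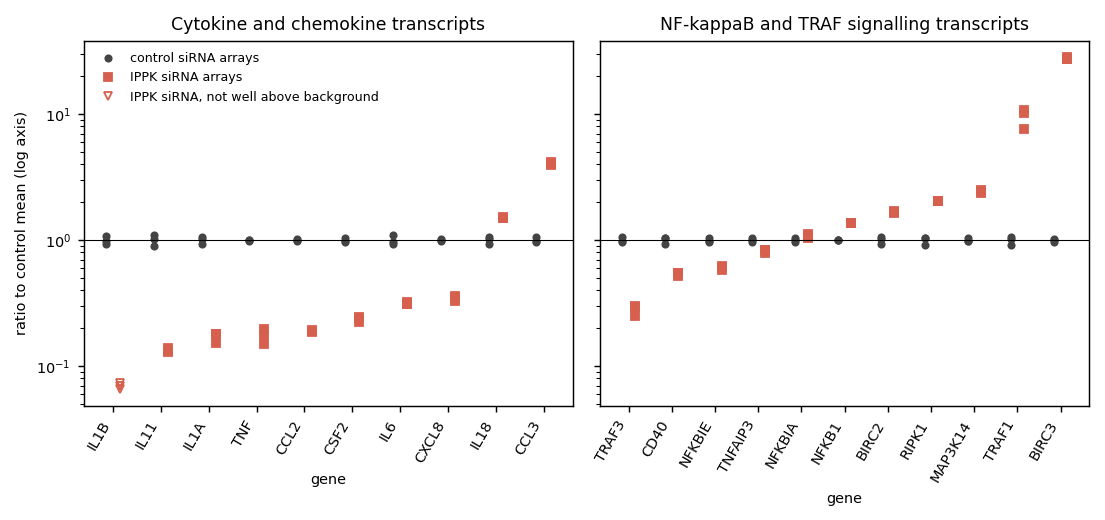
Ratio of each array to the mean of the control arrays (log axis) for 10 cytokine transcripts (left) and 11 NF-kappaB and TRAF signalling transcripts (right), with 3 control siRNA arrays (circles) and 3 IPPK siRNA arrays (squares, or open triangles where the probe was not well above background on any of them). CCL3 and IL18 stand above control among cytokines that otherwise lie below it, and BIRC3 and TRAF1 stand far above the other signalling genes at 27.6 and 9.43.

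BIRC3 and IL6 are both known to respond to NF-kappaB, and both promoters hold its consensus although their transcripts moved in opposite directions. Searched on both strands, the NF-kappaB consensus was in 11.3% of all 35116 promoters. It was in 4 of 12 promoters of lower cytokine genes and 1 of 2 of higher ones, and in 5 of 7 promoters of lower and 5 of 12 of higher signalling genes. Of all measured members, 8 of 21 cytokine promoters and 12 of 27 signalling promoters held it. The stretches are given with the matches in capitals, from chr11:102317255-102317388 (plus strand) for BIRC3, which rose to 27.6 times control, and chr7:22727080-22727199 (plus strand) for IL6, which fell to 0.315 of control.
BIRC3: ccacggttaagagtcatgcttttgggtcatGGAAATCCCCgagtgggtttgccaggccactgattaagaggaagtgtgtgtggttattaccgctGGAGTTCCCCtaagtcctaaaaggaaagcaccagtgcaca
IL6: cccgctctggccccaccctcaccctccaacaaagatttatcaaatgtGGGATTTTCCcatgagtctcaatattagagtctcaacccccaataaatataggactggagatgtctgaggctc
The promoters of TRAF1, CCL3, CXCL8, TNF and IL1B held no match in this window, which says only that these letters are not there.

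Among 23 receptors and mediators of IL-6 type cytokines 8 were higher and 4 lower (34.8% and 17.4%). That compares with 27.3% and 28.0% of all genes kept and 32.5% and 28.2% of protein-coding genes. When only the 6 arrays compared were fitted, 8 were higher and 6 lower. The oncostatin M receptor OSMR had 264, 285 and 269 in control and 787, 831 and 797 after knock-down, a ratio of 2.95 ± 0.0844 (limma adjusted p = 5.89e-07). SOCS2, a feedback inhibitor of cytokine receptors, was at 2.76 ± 0.0314, STAT5A at 2.6 ± 0.0901 and the kinase JAK2 at 2.37 ± 0.103. The inhibitor SOCS1 and the immediate early gene FOS were lower, at 0.624 ± 0.0417 and 0.612 ± 0.026. STAT3, the main factor downstream of these receptors, was at 0.886 ± 0.0313 by its brighter probe (limma adjusted p = 0.0632), and a dimmer one gave 0.538.

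Interferon-stimulated genes and sensors of foreign RNA changed in both directions. Of 39 measured, 17 were lower (43.6%) and 11 higher (28.2%), with a median log2 fold change of −0.18. All genes kept had 28.0% lower and 27.3% higher. With spike-in scaling 13 were lower and 11 higher, with a median of −0.04. Interferon-induced effectors were among the falls: IFI44 went from 408, 512 and 467 to 85.3, 103 and 93.3, a ratio of 0.204 ± 0.0198 (limma adjusted p = 4.83e-08), IFI44L to 0.321 ± 0.034, all 4 measured genes of the OAS family to between 0.505 and 0.697, and 4 of 5 genes of HLA class I with B2M were lower. The receptor TLR6 was at 0.379 ± 0.0154. Sensors were among the rises, with IFIH1 (MDA5) at 1.8 ± 0.199 and RIGI at 1.61 ± 0.0998, although a second RIGI probe gave 1.07 (limma adjusted p = 0.526). TAP2, of the peptide transporter for antigen presentation, was at 1.69 ± 0.146. IFNB1, IFI27 and RSAD2 were not kept.

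Matrix genes changed member by member, with no common direction. Among 35 collagens and collagen-processing enzymes 13 were lower and 10 higher, and among 36 other matrix proteins and proteases 11 were lower and 10 higher, the last turning to 10 lower and 11 higher with spike-in scaling. LOX, which cross-links collagen and elastin, rose from 585, 663 and 606 to 3600.2, 3651 and 3674, a ratio of 5.9 ± 0.0615 (limma adjusted p = 1.58e-09), whereas its relative LOXL3 fell from 1469, 1594 and 1549 to 481, 515 and 498, a ratio of 0.324 ± 0.0109 (limma adjusted p = 1.36e-08). COL1A1, the main fibrillar collagen of bone, was at 0.252 ± 0.02, COL8A1 at 0.446 ± 0.0118 and the basement membrane collagen COL4A5 at 2.82 ± 0.154. COL3A1, not well above background on any control array, was at least 1.98-fold higher (limma adjusted p = 8.79e-05). Of 9 chains of laminins, the cross-shaped proteins of basement membranes, 7 were lower and 1 higher, against 28.0% and 27.3% of all genes kept. LAMA3 was at 0.216 ± 0.075 and well above background on 2 of 3 knock-down arrays. The collagenase MMP13 was at 0.216 ± 0.0468, well above background on 1 of 3, while stromelysin MMP3 rose from 41602, 39905 and 36333 to 152002, 128066 and 124282, a ratio of 3.42 ± 0.383. Osteopontin, SPP1, was at 2.7 ± 0.135.

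Adhesion and cytoskeleton genes were mixed as well. Of 31 integrin and focal adhesion genes 10 were lower and 9 higher (32.3% and 29.0%), against 28.0% and 27.3% of all genes kept. With spike-in scaling 6 were lower and 10 higher. PARVA and PARVB, the parvins that tie integrin-linked kinase to actin, and vinculin, VCL, all rose, at 3.93 ± 0.137, 3.69 ± 0.292 and 3.74 ± 0.23 (limma adjusted p = 1.91e-08, 5.98e-08 and 6.24e-08). PARVA had 852, 908 and 822 in control and 3246, 3441 and 3458 after knock-down. The integrin chains ITGA1 and ITGA7 were at 0.449 ± 0.0769 and 0.489 ± 0.0319. CAV2, caveolin 2, was at 0.474 ± 0.0108 by its brightest probe, but the mean of its probes was higher than control, with a log2 fold change of 0.36. Of 41 genes of the actin cytoskeleton and contractility 13 were lower and 15 higher. FSCN1, which bundles actin filaments, went from 105660.0, 101387 and 106200.0 to 24978, 29844 and 30934, a ratio of 0.273 ± 0.0304, and the kinase LIMK2 was at 0.489 ± 0.0371. ROCK2 was at 0.522 ± 0.157, with 332, 558 and 603 on the knock-down arrays, of which array 1 was the lowest. Smooth muscle actin ACTA2 rose to 2.94 ± 0.542, alpha-actinin ACTN1 to 2.35 ± 0.151 and calponin CNN1 to 1.82 ± 0.0462.

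Small GTPases of the Ras family changed paralog by paralog. Of 24 measured, feedback genes included, 11 were lower and 9 higher (45.8% and 37.5%), against 28.0% and 27.3% of all genes kept. With spike-in scaling 5 were lower and 9 higher. RRAS2 rose from 660.5, 732 and 668 to 2846, 2793 and 2741, a ratio of 4.07 ± 0.0766 (limma adjusted p = 1.32e-08), while its paralog RRAS went from 9071, 8628 and 9092 to 5185, 4745 and 4939, a ratio of 0.555 ± 0.0247. RALA and RAP1B were higher, at 2.9 ± 0.0816 and 1.86 ± 0.0734. The phosphatases DUSP5 and DUSP6, which ERK signalling induces and which in turn switch ERK off, were lower, at 0.537 ± 0.00667 and 0.569 ± 0.0465.

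In the Hedgehog pathway, of 18 genes measured 7 were lower and 5 higher (38.9% and 27.8%), against 28.0% and 27.3% of all genes kept. GLI1, factor and target of the pathway, went from 859, 1136 and 1089 to 237, 253 and 292, a ratio of 0.254 ± 0.0279 (limma adjusted p = 1.97e-07), and PTCH1, receptor and target, from 77.5, 79.1 and 71.1 to 32.4, 32 and 35.2, a ratio of 0.437 ± 0.0228 (limma adjusted p = 3.11e-05). The ligand DHH was well above background on the 3 control arrays and on none after knock-down, at least 1.65-fold lower (limma adjusted p = 0.00238), a call that was lost with normexp background correction, with the authors' values and with the methods' t-test after Benjamini-Hochberg. The co-receptors GAS1 and CDON rose to 2.62 ± 0.014 and 1.62 ± 0.151, and HHAT, which attaches palmitate to the ligand, to 1.71 ± 0.0173. In TGF-beta and BMP signalling 8 of 31 were lower and 10 higher (25.8% and 32.3%), near the shares of all genes kept. With spike-in scaling 6 were lower and 12 higher, and with the methods' t-test after Benjamini-Hochberg 7 and 4. SMAD3, which carries the TGF-beta signal, went from 2953, 2935 and 3014 to 1159, 1148 and 1158, a ratio of 0.389 ± 0.00205 (limma adjusted p = 1.23e-08), and the BMP target ID2 to 0.46 ± 0.0109, while SMAD1 was at 1.56 ± 0.0309. The BMP antagonist GREM1 was at least 2.92-fold lower (limma adjusted p = 0.000808). In histone deacetylase complexes 7 of 19 were lower and 6 higher (5 and 6 with spike-in scaling), with the corepressor NCOR1 at 0.499 ± 0.0113 and MTA3 at 2.1 ± 0.205, and of 20 COP9 signalosome and cullin genes 5 were lower and 8 higher (2 and 8 with spike-in scaling, 8 and 8 with the authors' values).

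Genes of cellular stress differed by programme. Among 29 antioxidant genes and metallothioneins 17 were higher (58.6%) and 1, catalase (CAT, 0.611 ± 0.0425), was lower (3.4%). All genes kept had 27.3% higher and 28.0% lower, and protein-coding genes 32.5% and 28.2%. The median log2 fold change of the list was 0.29, or 0.19 with normexp background correction and 0.17 with the authors' values. HMOX1 led them, followed by MT1G at 2.82 ± 0.201 and thioredoxin reductase TXNRD1, which had 650.1, 711 and 825 in control and 1906, 1828 and 1822 after knock-down, a ratio of 2.55 ± 0.0648 (limma adjusted p = 6.68e-07). Of 8 metallothioneins, small metal-binding proteins, 7 were higher. MT1X had 80387, 80174 and 75488 in control and 171213, 174446 and 181026 after knock-down, a ratio of 2.23 ± 0.0636 (limma adjusted p = 2.7e-08), and MT2A was at 1.08 ± 0.0967 and did not pass (limma adjusted p = 0.2). The metallothionein genes are near-identical copies, so their probes may share signal. The quinone reductase NQO1 was at 1.95 ± 0.185.

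The metal response element, the word TGCACNC or TGCGCNC to which the metal-sensing factor MTF1 binds, was in all 3 metallothionein promoters in the RefSeq table and in 29.6% of all promoters. In the upstream stretch of MT1X (chr16:56682290-56682453, plus strand) it occurs 4 times, shown in capitals.
MT1X: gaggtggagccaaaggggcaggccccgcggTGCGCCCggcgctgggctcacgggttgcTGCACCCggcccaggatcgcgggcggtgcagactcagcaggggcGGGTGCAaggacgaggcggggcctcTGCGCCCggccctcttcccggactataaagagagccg
The antioxidant response element, searched as TGACNNNGC, was in 5 of 16 promoters of measured antioxidant genes without metallothioneins and in 2 of 9 of the higher ones, against 13.3% of all promoters.

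ATF4 targets and genes of the unfolded protein response raise amino acid synthesis and protein folding capacity under stress. Of 30, 20 were higher (66.7%) and 6 lower (20.0%), or 20 and 3 with spike-in scaling, with a median log2 fold change of 0.30. All genes kept had 27.3% higher and 28.0% lower, and protein-coding genes 32.5% and 28.2%, shares to set beside each count in this paragraph. HSPA5, the main chaperone of the endoplasmic reticulum, went from 1292, 1433 and 1219 to 3432, 3110.1 and 3186, a ratio of 2.47 ± 0.128 (limma adjusted p = 3.46e-06). The serine synthesis enzymes PSAT1 and PSPH were at 2.44 ± 0.0729 and 2.33 ± 0.0849 (limma adjusted p = 1.6e-08 and 1.99e-08). DDIT3, the proapoptotic factor of the same response, was lower, at 0.448 ± 0.17, with 459, 936 and 957 on the knock-down arrays, of which array 1 was well below the others, and ATF4 itself was at 1.02 ± 0.0289 (limma adjusted p = 0.704). Of 27 cytosolic heat shock proteins 12 were lower (44.4%) and 5 higher (18.5%), none of the falls as large as 1.5-fold. With spike-in scaling 2 were lower and 4 higher, so no direction is given for the group. HSPA1A was at 0.72 ± 0.0105 and the chaperonin subunit CCT6A at 0.712 ± 0.0233, while the heat shock factor HSF1 was at 1.53 ± 0.0571. Of 24 histone genes 12 were lower and 5 higher, 4 and 5 with spike-in scaling, and SLBP, which binds the stem-loop of replication histone messages, went from 16905, 17729 and 13498 to 8554, 9113 and 8914, a ratio of 0.556 ± 0.0178. Among 21 immediate early and MYC network genes 7 were lower and 5 higher, 5 and 6 with spike-in scaling, with IER3 at 0.459 ± 0.0218 and JUN at 2.38 ± 0.107. AJUBA, a target of YAP, was at 0.511 ± 0.00879 in a list of SRF and YAP targets with 7 lower and 5 higher of 16, and 2 and 5 with spike-in scaling.

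Lipid and sugar metabolism changed by enzyme. The counts that follow stand beside 28.0% lower and 27.3% higher of all genes kept. CDP-diacylglycerol synthases make the precursor of phosphatidylinositol, the lipid from which inositol phosphates derive, and their isoforms moved in opposite directions. CDS1 went from 388, 447 and 342 to 79.6, 94.2 and 91.7, a ratio of 0.226 ± 0.0201 (limma adjusted p = 4.64e-08), and CDS2 from 915, 972 and 926 to 2343, 2339 and 2293, a ratio of 2.48 ± 0.0297 (limma adjusted p = 4.69e-08). In the whole list of phosphatidate synthesis 9 of 22 were lower and 8 higher, 5 and 8 with spike-in scaling, with the acyltransferase GPAT3 at 3.03 ± 0.0776 and the cardiolipin synthase CRLS1 at 0.506 ± 0.00291. Cholesterol genes were 10 lower and 8 higher of 25, and 3 and 8 with spike-in scaling, among them HMGCS1 at 0.568 ± 0.0209, IDI1 at 0.706 ± 0.0345 and DHCR7 at 1.61 ± 0.0195. Among 33 glycolysis and hypoxia genes 12 were lower and 11 higher, and 7 and 8 with spike-in scaling. The phosphofructokinase isoforms again diverged, PFKM from 3295, 3684 and 3393 to 12696, 13617 and 13466, a ratio of 3.84 ± 0.143 (limma adjusted p = 1.58e-09), and PFKP from 10032, 10202 and 10739.8 to 4555, 4844 and 4883, a ratio of 0.461 ± 0.0173 (limma adjusted p = 1e-07). The hypoxia targets ADM and CA9 were lower, ADM at 0.389 ± 0.0264 and CA9 at least 3.05-fold (limma adjusted p = 3.37e-06 and 5.75e-06), whereas the hypoxia-induced kinase PDK1 was at 2.54 ± 0.0615 and the oxygen sensor EGLN1 at 1.71 ± 0.0651. GAPDH, often used as a reference, was at 1.04 ± 0.00947 (limma adjusted p = 0.594).

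**Figure D4:**
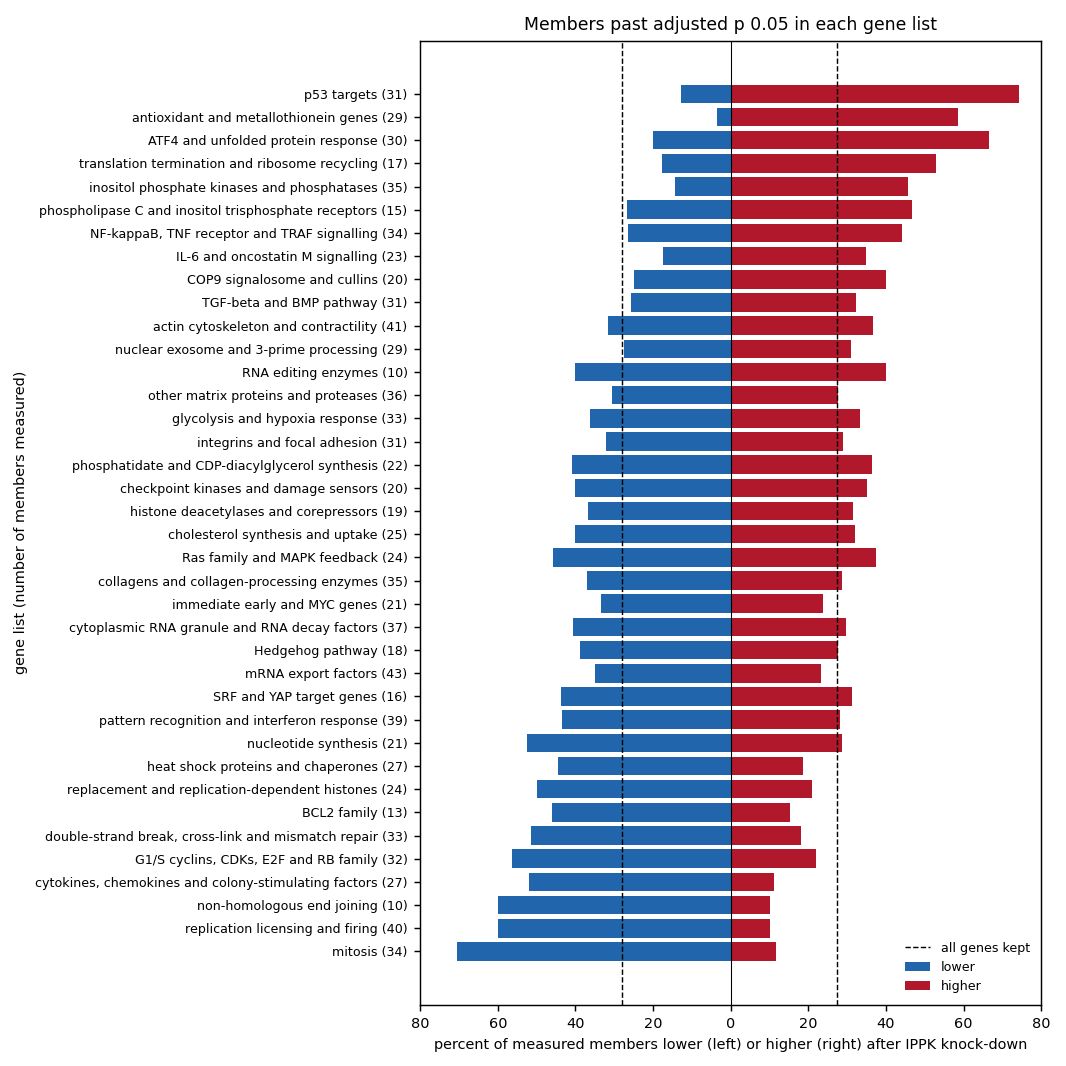
Share of the measured members of each gene list that were lower (blue, to the left) or higher (red, to the right) after IPPK knock-down at a limma adjusted p of 0.05, in percent, with the number of members measured in brackets. Dashed lines mark the shares over all genes kept, 28.0% and 27.3%. Protein-coding genes alone had 28.2% lower and 32.5% higher. Marker lists of cell types and nuclear-retained RNAs are not drawn. Among the lists drawn mitosis reaches furthest to the left, and p53 targets reach furthest to the right.

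Markers of other cell types were read to see what moved beside these lists. Of 7 epithelial markers measured 5 were lower and 2 higher, with a summed intensity of 14720 to 15820 on the control arrays and 10440 to 10810 after knock-down, CLDN4, a tight junction protein, falling to 0.202 ± 0.0259. With spike-in scaling 2 epithelial markers were lower and 1 higher, and the methods' t-test after Benjamini-Hochberg gave 2 and 0. CDH1, the defining adhesion protein of epithelia, was well above background on 2 knock-down arrays and on no control array. Of 7 leukocyte markers 2 were lower and 0 higher, with sums of 1442 to 1594 in control and 1061 to 1145 after knock-down, CSF1R at 0.183 ± 0.0144. Of 4 endothelial markers 3 were lower and 0 higher, with sums of 297 to 337 in control and 196 to 235 after knock-down, TEK at 0.353 ± 0.0601 and well above background on 1 of 3 knock-down arrays. The osteoblast list had 3 lower and 3 higher of 9, with sums of 14980 to 16200 in control and 10760 to 12000 after knock-down. A sum is set mainly by the brightest probes of its list, so it need not follow the counts. All cells were U2OS by their description, and the source of these marker signals was not tested.

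The largest changes were set beside the other knock-downs, which share the control arrays. The genes were chosen for their size after IPPK knock-down, so the share that goes further than in another knock-down is a description. Over all genes kept, 23.8% were lower and 25.1% higher after IPPK than after DBP5 knock-down, and 29.4% lower and 30.8% higher than after GLE1 knock-down. Of the 10 largest falls, 8 were lower after IPPK knock-down than after both others at a limma adjusted p of 0.05, and of the 10 largest rises 7 were higher than after both. TNNT2 was at 0.118 of control after IPPK knock-down, at 1.22 after DBP5 and at 2.03 after GLE1 knock-down (limma adjusted p = 2.03e-07 and 2.15e-08 for the differences). BIRC3 was at 27.6 after IPPK knock-down, 0.685 after DBP5 and 2.14 after GLE1 knock-down (limma adjusted p = 4.98e-11 and 2.75e-10). TRAF1 was at 9.43, 0.407 and 4.13 in the same order (limma adjusted p = 7.49e-09 and 1.39e-05), and LOX at 5.9, 1.44 and 0.638 (limma adjusted p = 1.54e-08 and 3.8e-10). In these genes the other knock-downs stood on the opposite side of control or nearer to it. Others did not set the IPPK knock-down apart: KLK12 was lower still after DBP5 knock-down, at 0.0359 (limma adjusted p = 0.000395), CDK16 was at 8.23 after DBP5 knock-down with no difference past the threshold (limma adjusted p = 0.875), and EREG was at 0.109 after GLE1 knock-down (limma adjusted p = 0.495). A p that misses the threshold does not show equal levels.

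TRAF3, at 0.28 after IPPK knock-down, was at 0.958 after DBP5 and 0.66 after GLE1 knock-down (limma adjusted p = 5.26e-08 and 2.05e-07). IL11 was at 0.39 after DBP5 and 1.8 after GLE1 knock-down, both above its level of 0.135 after IPPK knock-down (limma adjusted p = 3.26e-07 and 6.07e-10). CXCL8, by contrast, was lower after DBP5 knock-down, at 0.111, than after IPPK knock-down (limma adjusted p = 9.1e-08). PSPH of serine synthesis was at 1.09 and 1.12 of control after DBP5 and GLE1 knock-down against 2.33 after IPPK knock-down (limma adjusted p = 8.74e-08 and 4.17e-08). Geminin, GMNN, was at 1.9 and 1.71 against 3.36 (limma adjusted p = 1.45e-06 and 1.87e-07).

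**Figure D5:**
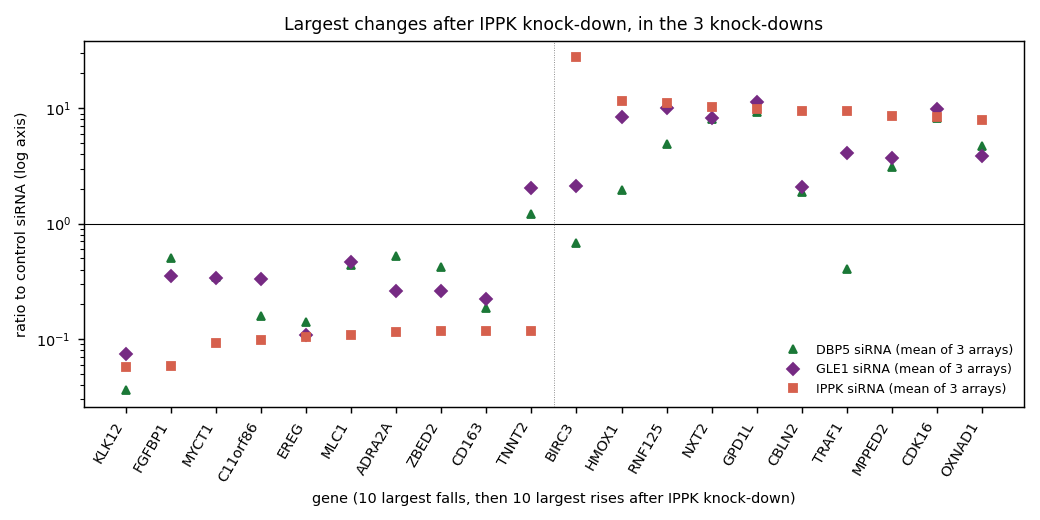
Ratio to control siRNA (log axis, mean of 3 arrays) after DBP5 (triangles), GLE1 (diamonds) and IPPK knock-down (squares) for the 10 largest falls and the 10 largest rises after IPPK knock-down, which are separated by a dotted line. TNNT2, BIRC3 and TRAF1 have knock-downs on both sides of control, while the other 17 genes have all knock-downs on one side.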

How the data were processed

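Cytoplasmic RNA of U2OS cells was hybridised with Cy3 label to Agilent whole human genome arrays, 1 colour per array. The scanner files deposited by the authors hold intensities per spot, of which the processed signal is already background-subtracted by the scanner software, and their table of processed values on a log2 scale, which the authors made by LOESS normalization in R, was used as an alternative. Comparison with the scanner files showed that the latter were made from signals without background subtraction.

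From the processed signals, outlier and control spots were left out and log2 values of the spots of one probe were averaged. The probe values were then normalized between the 12 arrays by cyclic loess. Of 34127 probes, 26449 matched a gene symbol through accession (77.5%). Each gene was represented by its brightest probe and kept if the scanner software marked that probe as well above background on the 3 arrays of any 1 siRNA. Groups were taken from the labels, and the spread was estimated over all 12 arrays with 1 mean per siRNA by limma 3.58.1 in R 4.3.3, two-sided, with Benjamini-Hochberg adjustment over 20818 genes and a threshold of 0.05. The number of arrays limits the precision. The script was tested on simulated data, where it recovered 63 of 100 genes changed 1.5-fold and 87 of 100 changed 2-fold, with 10 false calls. The simulation held far fewer changed genes than the data and no effect of the slide. The replicate number, which marks the slide, paired the arrays. Deviations of same-numbered control and IPPK siRNA arrays from their group means correlated with r of 0.35, 0.36 and 0.39. Other pairs had −0.26 to −0.13, but deviations cancel within a group, so positive same-numbered pairs force the others negative on balance.

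Genes were named as the target, the 10 largest falls and rises, the 5 largest bounds in each direction, the 3 largest falls and rises of each list, and members on whose role the account turns. Not every gene that this rule picks is reported here. The members and gene lists were chosen with earlier results of these data known. Alternatives covered normalization (75th percentile, quantile and, chosen after seeing the data, 8 spike-in probes), background (normexp with an offset of 50), the authors' values, the filter, the choice of probe, the replicate block, the arrays in the fit, each array left out, the fold threshold and the methods' t-test. What is called the methods' t-test is the paired t-test of the study's statistics section. The study's own gene lists from the arrays came from a rank-product method instead. Promoters and gene names came from RefSeq tables. Nothing was tested across a gene list.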

Additional observations from a re-analysis of the deposited data

How the results depend on the processing

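Named genes past the threshold kept their direction under every normalization, filter, fit and omission of an array that was run, but it changed with the probe for ADARB1 (log2 fold change −0.24 by its second probe), BCL2L11 (0.56), CCNB1 (0.31), NFKBIB (0.078), NUDT4 (0.12) and PRIM2 (−0.69 by its dimmest probe), and for CAV2 with the mean of its probes (0.36). The cause was not tested. Scaling to spike-in probes left 3209 genes lower, so that lower genes were 35.7% of those called against 50.7%, and the methods' t-test after Benjamini-Hochberg gave 3688. At least 1.5-fold lower were 1733 genes with normexp background correction and 1722 with the authors' values. With a 2-fold threshold 1114 genes were lower and 1208 higher, and with 3-fold 351 and 386. With the replicate block 6336 genes were lower and 6071 higher, 2662 and 2779 of them at least 1.5-fold, and no named call changed. Leaving out 1 array in turn gave 5281 to 5473 lower and 5195 to 5536 higher genes. Spike-in scaling also ended the calls of BTG1, CCNB1, CDKN1B, DDX19B, E2F6, GLE1, IP6K1, ITPKC and TNFAIP3, and normexp and the authors' values each ended those of DDX19B, DHH and MDM2. Of 239 named genes 22 lost their call with the methods' t-test after Benjamini-Hochberg, ACTA2, ADARB1, CA9, CDKN1B, CDKN2C, CDON, DDIT3, DHH, DUT, E2F6, E2F7, GREM1, IL32, ITPK1, MALAT1, MDM2, MTA3, PAXX, RBM7, ROCK2, SLBP and TNFAIP3. Probes not well above background on any array of a group give only bounds, and ratios of probes detected on some arrays of a group rest partly on dim signals.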
